A study of Mus musculus with 170 samples.

Results

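The signals for trabeculation, represented by 10 of the 40549 genes in the expression table, were followed through single cells of the mouse ventricle at E9.5. They were chosen by name, with earlier results of these data known. The set comprises a neuregulin ligand (Nrg1), its receptor family (Erbb2, Erbb3 and Erbb4) and a myocardial growth factor (Bmp10). It also holds a Notch receptor with a pair of its ligands (Notch1, Dll4 and Jag1) and an ephrin with its receptor (Efnb2 and Ephb4). Hearts of 2 genotypes were compared. Control hearts, which the labels call wild type, carried Dgcr8 loxP/loxP and the ROSA26 mT/mG/+ membrane reporter and no Cre. The conditional knockout (cKO) hearts, labelled Dgcr8-/-, carried Mesp1 Cre/+ in addition to the same floxed Dgcr8 and reporter alleles. The floxed alleles were thus shared, intact in control cells without Cre and deleted by Cre in cKO cells according to the label. All embryos were of the C57BL/6 strain. Mesp1 drives Cre in mesodermal progenitors, so that deletion of Dgcr8, a component of the microprocessor needed for most microRNAs, covers heart muscle and other descendants of those progenitors. The cells were picked by hand and made into libraries with Smart-seq2, a full-length cDNA protocol, in 2 sequencing batches.

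Trabeculae are the muscular ridges that grow from the compact ventricular wall towards the lumen, and their growth depends on exchange between the endocardium, the endothelial lining of the heart, and the myocardium beneath it. In the textbook scheme, Dll4 activates Notch1 in the endocardium, ephrin B2 acts downstream through EphB4, and neuregulin 1 released by the endocardium binds ErbB4, which pairs with ErbB2 on cardiomyocytes. Bmp10 is made by trabecular cardiomyocytes and sustains their proliferation.

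The values are TPM, transcript abundances scaled to transcript length and to a fixed total per cell, and levels below are means of log2(TPM + 1) with the SD across cells. A gene was counted as detected in a cell at a TPM of at least 1. The table held 143 of the 170 labelled cells, 74 control and 69 cKO, with between 2063 and 14139 genes per cell above 0. Marker genes divided the control cells into 29 cardiomyocyte-like (CM-like), 22 endothelial-like (EC-like), 13 epicardial-like and 3 erythroid-like cells, and 7 cells of a cluster led by mitochondrial transcripts stayed unnamed. In 6 of these 7 the mitochondrial genome gave between 31.4% and 61.1% of TPM, and in 1 it gave 4.32%. Of the cKO cells, 68 were CM-like, 1 was unnamed and 0 were EC-like, which leaves room for up to 4.35% among cells picked in this way. The sending side of the exchange could therefore be described only in control cells. That limit is not one for the heart itself. The paper reports that cKO cardiomyocytes came apart more easily, so that more of them were picked. It also detected endocardial and endothelial markers in cKO hearts by in situ hybridization. The labels name no embryo, so each genotype counts as 1 sample, cells are not replicates and no test was run between groups. Dgcr8 itself reached a TPM of 1 in 16 of the 29 control and in 21 of the 68 cKO CM-like cells, but a gene total does not separate the deleted exon from the rest of the transcript. Xist was present in 64 of the 68 cKO but 0 of the 29 control CM-like cells, and the Y-linked Ddx3y in 0 and 19, so sex and genotype cannot be told apart.

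The class names were checked against their markers. All 13 endothelial markers and 4 of 14 mesenchymal markers were raised in the EC-like cells, in which the summed endothelial TPM ranged from 947 to 5184, against 1.82 to 271 in control CM-like cells and 3.09 to 412 in cKO CM-like cells. Cdh5 and Cd93 were detected in no CM-like cell of either genotype. The cardiomyocyte markers summed to between 163 and 36747 TPM in EC-like cells, with a median of 901. In control CM-like cells they summed to between 39158 and 119108, so muscle transcripts were carried in every EC-like cell. Their part in the Erbb2 and Erbb4 values of EC-like cells was not tested.

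RefSeq promoters (GRCm38.p6, from 250 bases before to 50 after the start of the gene) were available for 8 of the 10 genes, and not for Nrg1 and Erbb3. They are shown for Notch1 (chr2:26503773-26504072, minus strand), the most uniform endothelial gene of the set, for Efnb2 (chr8:8661193-8661492, minus strand) and Erbb4 (chr1:69108010-69108309, minus strand), whose levels differed most between the genotypes, and for Bmp10 (chr6:87428744-87429043, plus strand), the muscle-derived factor. Each is written 5′ to 3′ along the gene. The RefSeq start of Notch1 lies inside the longer GENCODE span of the gene (chr2:26457903-26516663), so this window is not upstream of the GENCODE start, whereas both starts coincide for Efnb2, Erbb4 and Bmp10. Capitals mark matches, on either strand, to 4 short motifs. RBPJ, the DNA-binding partner of Notch, was searched as TGGGAA. Factors of the ETS family, common in endothelium, were searched as CCGGAA. Factors of the GATA family, common in heart muscle, were searched as AGATAA. The E-box bound by HEY repressors was searched as CACGTG.
Notch1: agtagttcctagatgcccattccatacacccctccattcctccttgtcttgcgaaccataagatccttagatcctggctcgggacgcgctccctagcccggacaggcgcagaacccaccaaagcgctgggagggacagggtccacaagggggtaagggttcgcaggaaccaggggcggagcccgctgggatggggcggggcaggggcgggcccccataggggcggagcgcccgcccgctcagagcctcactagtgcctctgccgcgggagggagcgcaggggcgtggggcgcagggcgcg
Efnb2: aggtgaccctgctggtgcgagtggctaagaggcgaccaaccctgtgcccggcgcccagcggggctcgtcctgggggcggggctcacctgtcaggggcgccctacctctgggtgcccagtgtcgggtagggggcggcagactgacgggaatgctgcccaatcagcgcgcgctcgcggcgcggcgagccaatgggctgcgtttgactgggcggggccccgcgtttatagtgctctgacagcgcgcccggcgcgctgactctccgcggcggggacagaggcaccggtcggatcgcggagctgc
Bmp10: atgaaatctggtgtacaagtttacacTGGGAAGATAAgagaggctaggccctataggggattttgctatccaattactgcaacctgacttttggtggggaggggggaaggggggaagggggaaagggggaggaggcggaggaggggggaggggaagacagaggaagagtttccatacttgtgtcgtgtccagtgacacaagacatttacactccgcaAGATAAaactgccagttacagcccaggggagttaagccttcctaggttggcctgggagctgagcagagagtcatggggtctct
Erbb4: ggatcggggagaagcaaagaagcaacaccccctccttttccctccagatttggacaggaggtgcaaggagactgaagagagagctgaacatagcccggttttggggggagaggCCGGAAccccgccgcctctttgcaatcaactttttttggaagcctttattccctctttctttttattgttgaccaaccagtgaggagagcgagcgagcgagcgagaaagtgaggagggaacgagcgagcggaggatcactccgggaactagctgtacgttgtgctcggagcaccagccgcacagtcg
The Bmp10 promoter held 1 RBPJ and 2 GATA matches, and its RBPJ match overlapped the first GATA match by 1 base. Erbb4 held 1 ETS match. None of the other 6 promoters matched any of the 4 motifs, which says only that these letters are not in these windows. Among all 32851 promoters of 300 bases, 25.6% held the RBPJ core, 14.9% the ETS core, 11.2% the GATA core and 7.15% the E-box. The promoters differed in base composition, from 53% G and C in Bmp10 to 72.3% in Efnb2.

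In the GENCODE annotation of GRCm38, Nrg1 (chr8:31814551-32884029) and Erbb4 (chr1:68032186-69108059) are the longest genes of the set, spanning 1069479 and 1075874 bases. The other genes span between 8684 bases (Bmp10) and 58761 bases (Notch1). Exons of 5 of the genes overlap exons of an antisense gene, by 1068 and 414 bases in 2 transcripts at Notch1, by 482 at Nrg1, by 214 at Dll4, by 33 at Ephb4 and by 9 at Erbb2. The library protocol does not mark strand, so reads from these stretches cannot be assigned to one gene or the other.

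Nrg1, the neuregulin ligand, had its highest pooled mean in EC-like cells, but most of these cells lacked it. Its TPM in the 22 EC-like cells ran from 0 through a median of 0 to 55.7, and 9 cells (40.9%, exact 95% interval 20.7 to 63.6) held it, all at a TPM of at least 10. In control CM-like cells it ran from 0 through a median of 0 to 34.3 and was detected in 3 of 29 cells. The classes overlapped, and only 2 EC-like cells exceeded the highest CM-like cell. Mean log2(TPM + 1) was 1.85 ± 2.32 (SD, n = 22 cells) in EC-like and 0.40 ± 1.18 (n = 29 cells) in CM-like cells, a difference of 1.45. The difference was 2.83 in batch 1 and 0.71 in batch 2. Detection was correspondingly uneven, with 5 of 7 EC-like cells in batch 1 and 4 of 15 in batch 2. The median EC-like cell of batch 1 had 10293 detected genes against 8538 in batch 2. Nrg1 was also detected in 4 of the 13 control epicardial-like cells, up to 54.4 TPM, with a mean of 1.06. In batch 2 the means were 1.25 in epicardial-like cells, of which 3 of 9 held it, and 1.24 in EC-like cells.

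Notch1, the receptor that endocardial cells use to read Dll4, separated the classes most clearly. Every EC-like cell held it, from 4.82 TPM through a median of 25.7 to 257. In control CM-like cells it ran from 0 through a median of 0 to 6.98, and 6 of 29 cells reached a TPM of 1. Of the 22 EC-like cells, 21 lay above the highest control CM-like cell. The means were 4.72 ± 1.17 and 0.49 ± 0.92 on the log2(TPM + 1) scale, a difference of 4.23 that was 4.31 in batch 1 and 4.00 in batch 2. Without its highest cell, the EC-like mean was 4.57.

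Dll4, the Notch ligand of arterial and endocardial cells, was listed at 0 in all 29 control CM-like cells. In EC-like cells its TPM ran from 0 through a median of 0.680 to 146, and 9 of 22 cells held it, 5 of 7 in batch 1 and 4 of 15 in batch 2. The mean was 2.15 ± 2.59 in EC-like cells, 3.47 in batch 1 and 1.53 in batch 2. Dll4 was thus found in a subset of the EC-like cells, as Nrg1 was.

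Jag1, another Notch ligand, did not share this pattern and, in 56 of 74 control cells, was the most widely detected gene of the set. It was present in 19 of 22 EC-like cells, at a median of 3.76 TPM (0 to 13.6), and in 24 of 29 control CM-like cells, at a median of 7.38 TPM (0 to 42.98). The means were 2.16 ± 0.99 and 2.82 ± 1.59. Their difference of −0.67 was below 1 log2 unit and had the same sign in both batches.

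Efnb2, the ephrin ligand downstream of Notch, was detected in 20 of 22 EC-like cells at a median of 40.3 TPM (0 to 98.3) and in 16 of 29 control CM-like cells at a median of 6.91 TPM (0 to 30.1). Of the EC-like cells, 14 exceeded the highest CM-like cell. The difference of the means, 4.67 ± 1.93 against 2.14 ± 1.95, was 2.53 (2.85 in batch 1 and 2.00 in batch 2). Its receptor Ephb4 was detected in 12 of 22 EC-like cells at a median of 7.09 TPM (0 to 43.96) and in 4 of 29 control CM-like cells at a median of 0 (0 to 99.1). For Ephb4 the means were 2.26 ± 2.09 and 0.46 ± 1.34, a difference of 1.80. The highest Ephb4 value of both classes lay in 1 CM-like cell, without which the CM-like mean was 0.23.

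The neuregulin receptors had the reverse order. Erbb2, the partner that binds no ligand by itself, was detected in 19 of 29 control CM-like cells at a median of 7.25 TPM (0 to 38.5) and in 8 of 22 EC-like cells at a median of 0 (0 to 57.8). Its means were 2.67 ± 2.04 and 1.52 ± 2.10, and the difference of −1.15 came mainly from batch 2, where it was −2.03 against −0.22 in batch 1. Erbb4, the receptor that binds neuregulin, was detected in 15 of 29 control CM-like cells at a median of 1.38 TPM (0 to 201) and in 2 of 22 EC-like cells at a median of 0 (0 to 27.8). Its means were 1.91 ± 2.19 and 0.43 ± 1.36, a difference of −1.47 (−1.83 in batch 1 and −1.37 in batch 2). The receptor side was thus more frequent in CM-like cells, and both classes overlapped for both receptors.

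Erbb3, a further neuregulin receptor with a weak kinase, and Bmp10 were too rare to compare between these classes, since each had a TPM above 0 in 10 or fewer of the 51 cells. Erbb3 reached a TPM of 1 in 0 of 29 control CM-like cells, for which a count of 0 allows up to 10.3%, and in 2 of 22 EC-like cells, both in batch 1. Bmp10 did so in 5 of 29 control CM-like cells, 4 of them at 10 or more and with a highest value of 103, and in 0 of 22 EC-like cells, for which a count of 0 allows up to 13.6%.

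**Figure D1:**
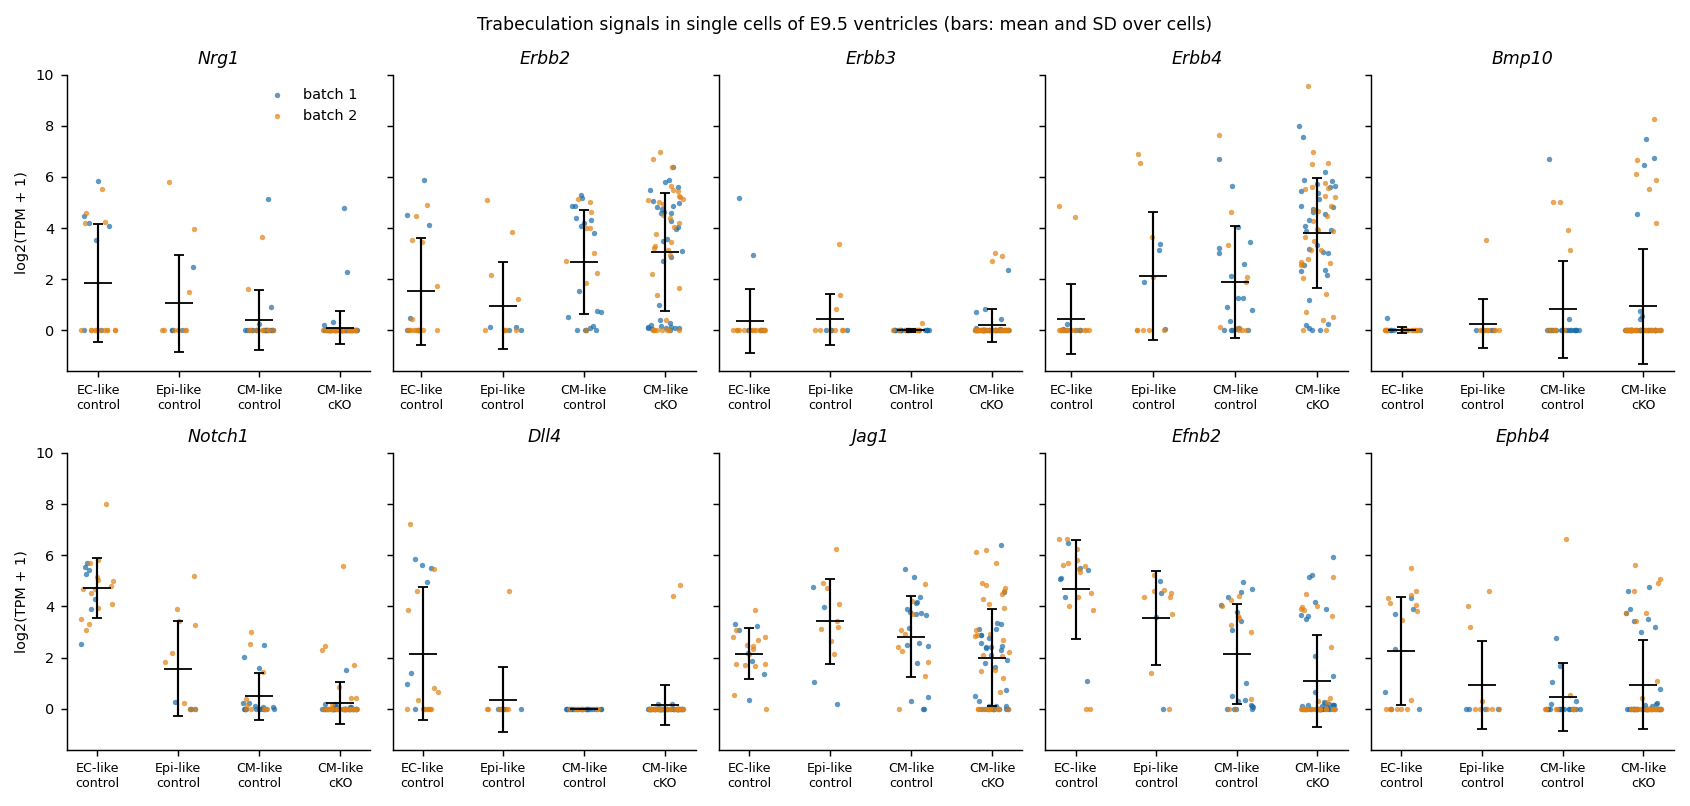
Each point is 1 cell, plotted by its log2(TPM + 1) for each of the 10 genes in control EC-like (22), control epicardial-like (13), control CM-like (29) and cKO CM-like (68) cells, coloured by sequencing batch, with bars for the mean and SD over cells. Notch1 lies high in all EC-like cells, Dll4 and Nrg1 in part of them, and Erbb4 is highest in the cKO CM-like cells, with a mean of 3.81.

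Among all 13316 genes above 0 in more than 10 of the control EC-like and CM-like cells, 19.5% were at least 1 log2 unit higher in EC-like cells with the same sign in both batches, and 8.19% were lower by the same rule. Of the 10 genes, 8 entered this comparison. By that rule 5 (Nrg1, Notch1, Dll4, Efnb2 and Ephb4) were higher in EC-like cells, 2 (Erbb2 and Erbb4) were lower, and Jag1 was neither. Dll4, Ephb4, Erbb2 and Erbb4 were above 0 in more than 10 cells only in the class where they were higher, and Dll4 in no CM-like cell at all, so that the filter favoured a difference for them and the counts are a description. The median difference over all genes was 0.26. Centred on that median of 0.26, the counts over all genes became 1922 higher and 1611 lower in place of 2599 and 1091, and the same 5 and 2 genes of the set passed. In batch 1 alone only Notch1, Efnb2 and Erbb4 passed, and in batch 2 alone only Notch1, Efnb2, Ephb4 and Erbb2. The filter of more than 10 cells above 0 was there applied within the batch, and some genes failed only that filter. Their differences were 2.83 for Nrg1, 3.47 for Dll4 and 1.82 for Ephb4 in batch 1. In batch 2 they were 1.53 for Dll4 and −1.37 for Erbb4. Erbb2 did not pass with 4 clusters or by the log2 ratio of mean TPM, by which Jag1 was lower, and a pseudocount of 10 left only Notch1 and Efnb2. The epicardial-like cells lay between the EC-like and CM-like control cells for 6 of the 10 genes. Ordered by level over the 4 classes shown in the plot of single cells, the 10 genes gave 30 neighbouring pairs of classes, and in 29 of them the gap was within the larger SD of the pair. The exception was the gap of 3.16 between EC-like and epicardial-like cells for Notch1.

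**Figure D2:**
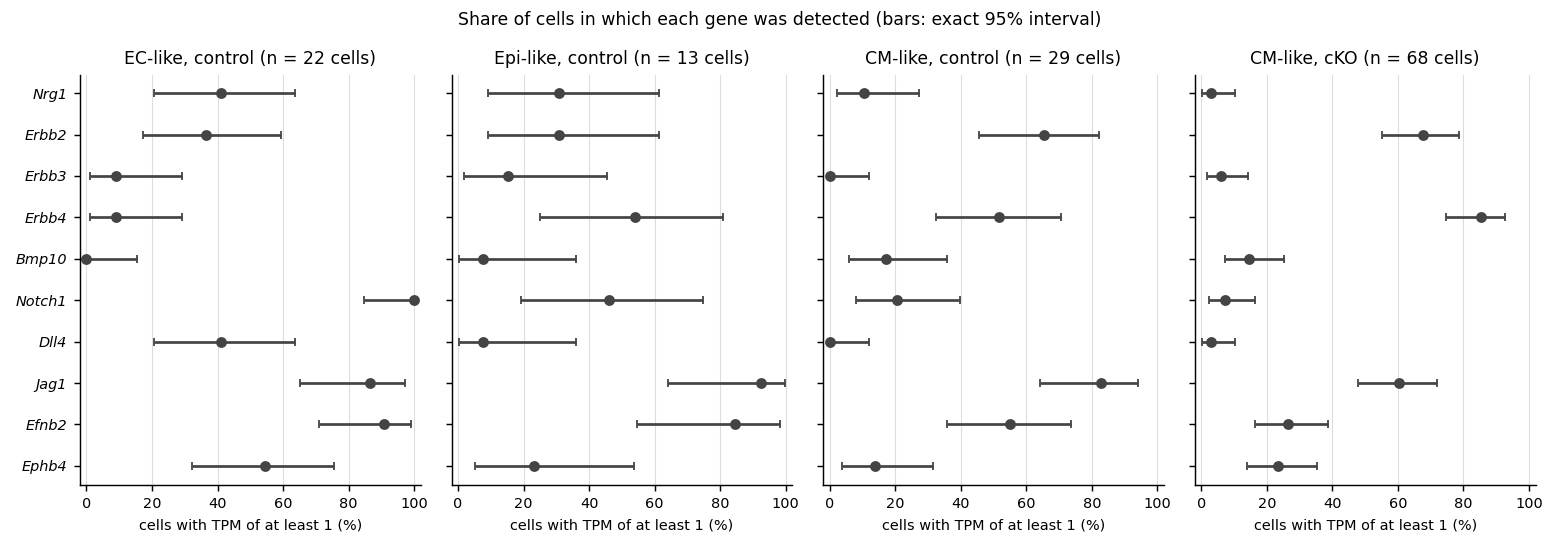
The share of cells with a TPM of at least 1 (in %) is plotted for each gene in each class, with exact 95% intervals that cover counting error only. Notch1 was found in 100% of EC-like cells, and Erbb4 in 51.7% of control and 85.3% of cKO CM-like cells.

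Single cells held the endothelial genes in different combinations. Dll4 and Notch1 were detected together in 9 of 22 EC-like cells (40.9%), Nrg1 and Notch1 also in 9, Nrg1 and Dll4 in 6, and Efnb2 and Ephb4 in 10. Every EC-like cell held Notch1, so the counts with Notch1 only repeat those of Dll4 and Nrg1. Dll4 was 0 in all 29 control CM-like cells, so none of them could hold all 4 of Nrg1, Notch1, Dll4 and Efnb2. All 4 were present in 0 of 68 cKO CM-like cells and in 6 EC-like cells, 5 of them from batch 1. The median number of detected genes was 10304 in these 6 cells and 8616 in the other 16. Their median Notch1 TPM was 39.7 against 23.1, and their median Jag1 TPM was 2.13 against 4.53. The part of depth and batch in this subset was not tested. Across the 22 EC-like cells, Pearson's r of log2(TPM + 1) was largest in size for Jag1 and Notch1 among the pairs examined. It was −0.62 for that pair, −0.74 in batch 1 and −0.56 in batch 2. Between Nrg1 and Efnb2 it was 0.37, with 0.83 in the 7 cells of batch 1 and 0.24 in the 15 of batch 2. These values describe points that share library depth and batch.

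**Figure D3:**
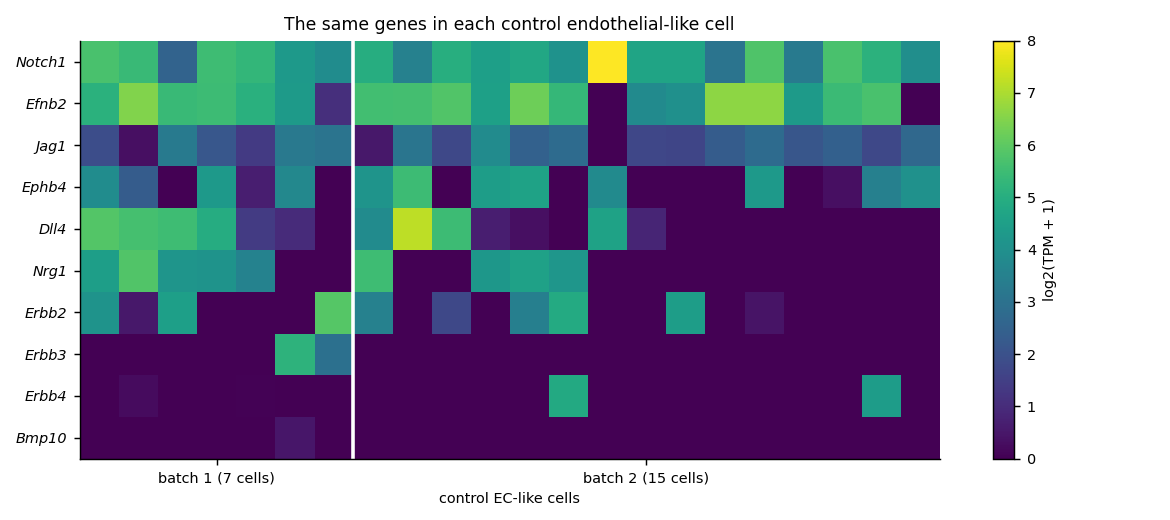
Each column is 1 of the 22 control EC-like cells, grouped by batch and ordered within it by how many of Nrg1, Notch1, Dll4 and Efnb2 were detected, and colour gives log2(TPM + 1). Notch1 fills its row, Dll4 and Nrg1 reach a TPM of 1 in 9 cells each, and Bmp10 is at or near 0 throughout.

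Between the genotypes, the comparison was confined to CM-like cells, 29 control and 68 cKO. Erbb4 was higher in cKO cells and Efnb2 was lower. The median number of detected genes was 9302 in control and 8553 in cKO CM-like cells. In batch 1 the order was the reverse, with 8458 in control and 9798 in cKO cells, and in batch 2 the medians were 9679 and 7765. The share of TPM from the mitochondrial genome was also lower in cKO cells, at a median of 3.01% against 6.30%.

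For Erbb4, the TPM ran from 0 through a median of 1.38 to 201 in control and from 0 through a median of 14.4 to 752 in cKO CM-like cells. It was detected in 15 of 29 control cells (51.7%, interval 32.5 to 70.6) and in 58 of 68 cKO cells (85.3%, interval 74.6 to 92.7). At a TPM of at least 10 the counts were 5 of 29 and 40 of 68. Most cKO cells were therefore at levels reached by few control cells, although the ranges overlapped and only 2 cKO cells exceeded the highest control cell. The means were 1.91 ± 2.19 and 3.81 ± 2.15, and cKO exceeded control by 1.90, by 1.95 in batch 1 and by 1.81 in batch 2. The part of depth, mitochondrial share and endothelial transcripts in this difference was not tested. The value was 1.90 with the mitochondrial genome left out of the TPM total. It was 1.81 in the 27 control and 64 cKO CM-like cells with at most 2 endothelial markers at a TPM of 10 or more. It was 2.02 in the 28 control and 64 cKO cells with at least 5000 detected genes. Both filters thus kept most of the cells. Without the highest cell of each genotype the means were 1.70 and 3.72. The difference was smaller than the SD of either genotype across cells.

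Erbb2 was present in 65.5% of control (19 of 29) and 67.6% of cKO cells (46 of 68), at a median of 7.25 TPM (0 to 38.5) and 10.7 TPM (0 to 126). Its difference of 0.39 was 0.53 in batch 1 and −0.03 in batch 2. Erbb3 reached a TPM of 1 in 4 of 68 cKO cells and in 0 of 29 control cells. In all 4 cKO cells Erbb2 was detected as well.

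Erbb2 and Erbb4 act as a pair, and the share of cells that held both was larger among the cKO cells measured. Both were detected in 9 of 29 control CM-like cells (31.03%, interval 15.3 to 50.8) and in 43 of 68 cKO cells (63.2%, interval 50.7 to 74.6). By batch, the counts were 4 of 19 control and 20 of 34 cKO cells in batch 1, and 5 of 10 and 23 of 34 in batch 2. At a TPM of at least 10 for both genes they were 0 of 29 control cells, an observation that leaves room for up to 10.3%, and 23 of 68 cKO cells (33.8%), 12 in batch 1 and 11 in batch 2. At this level Erbb2 was present in 14 control cells and Erbb4 in 5 others, and no control cell held both. Among cKO cells Erbb2 was present at this level in 36 and Erbb4 in 40. The joint counts depend on the count of each gene, and pairing beyond those counts was not tested. Across cells, r between the log2(TPM + 1) of Erbb2 and Erbb4 was −0.23 in control (n = 29 cells) and 0.15 in cKO CM-like cells (n = 68 cells).

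**Figure D4:**
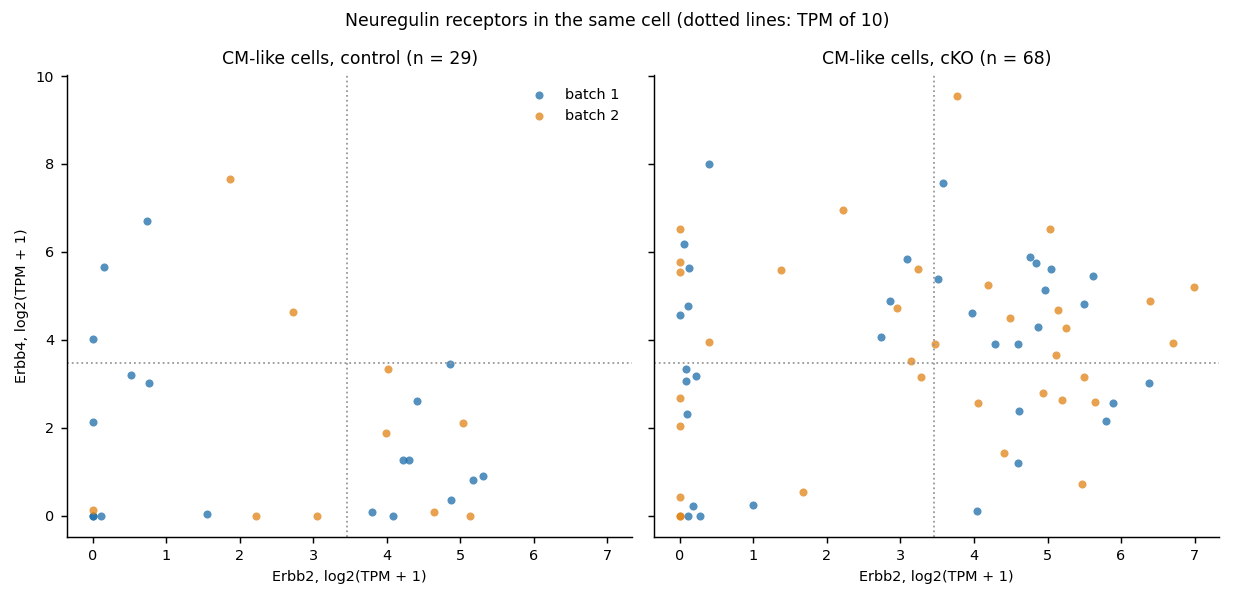
Each point is 1 CM-like cell, with the log2(TPM + 1) of Erbb2 on the x axis and of Erbb4 on the y axis, for 29 control cells (left) and 68 cKO cells (right), coloured by batch, with dotted lines at a TPM of 10. The upper right field holds 0 control cells and 23 cKO cells.

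Efnb2 was detected in 16 of 29 control CM-like cells (55.2%, interval 35.7 to 73.6) at a median of 6.91 TPM (0 to 30.1), and in 18 of 68 cKO cells (26.5%, interval 16.5 to 38.6) at a median of 0 (0 to 60.7). The cKO cells were low in most cases, but 4 of them exceeded the highest control cell. The means were 2.14 ± 1.95 and 1.08 ± 1.80, and cKO lay below control by a difference of −1.06, −0.67 in batch 1 and −1.70 in batch 2. Batch 1 alone did not reach 1 log2 unit, and neither did the ratio of mean TPM (−0.64) or the division into 4 clusters (−0.67). In batch 2 alone, 3106 of 11436 genes were lower in cKO cells by the same rule and 702 higher. The median number of detected genes there was 7765 in cKO and 9679 in control cells. The part of depth and batch in the Efnb2 difference was not tested. The receptor of Efnb2, Ephb4, was present in 4 of the 29 control and 16 of the 68 cKO cells, and its difference was 0.49.

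Jag1 was detected in 24 of 29 control (82.8%, interval 64.2 to 94.2) and 41 of 68 cKO CM-like cells (60.3%, interval 47.7 to 71.97), at a median of 7.38 TPM (0 to 42.98) and 3.20 TPM (0 to 82.9). Its difference of −0.83 was −1.26 in batch 1 and −0.32 in batch 2. The intervals of the shares overlapped, as did those of Efnb2 and those of Erbb2 and Erbb4 together.

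Bmp10 was found in a minority of muscle cells in both genotypes. It was present in 5 of 29 control (17.2%, interval 5.85 to 35.8) and 10 of 68 cKO CM-like cells (14.7%, interval 7.28 to 25.4), with a median of 0 in both and highest values of 103 and 309 TPM. Among the cells that held it, the median was 31.1 TPM in control and 77.9 TPM in cKO cells. The difference of the means was 0.10, with opposite signs in batch 1 (0.42) and batch 2 (−0.63), whereas the log2 ratio of mean TPM was 1.05. The 3 highest cKO cells were all above the highest control cell. All 10 cKO cells with Bmp10 also held Erbb4, as did 48 of the other 58, while 2 of the 5 control cells with Bmp10 did.

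Notch1, Nrg1 and Dll4 were rare in muscle cells of both genotypes. Notch1 reached a TPM of 1 in 6 of the 29 control and 5 of the 68 cKO CM-like cells, Nrg1 in 3 and 2, and Dll4 in 0 and 2. Their differences were −0.25, −0.29 and 0.14. The highest cKO value of Notch1, 47.01 TPM, and that of Nrg1, 26.9 TPM, each stood in 1 cell whose next neighbour was at 4.45 and 3.85 TPM.

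**Figure D5:**
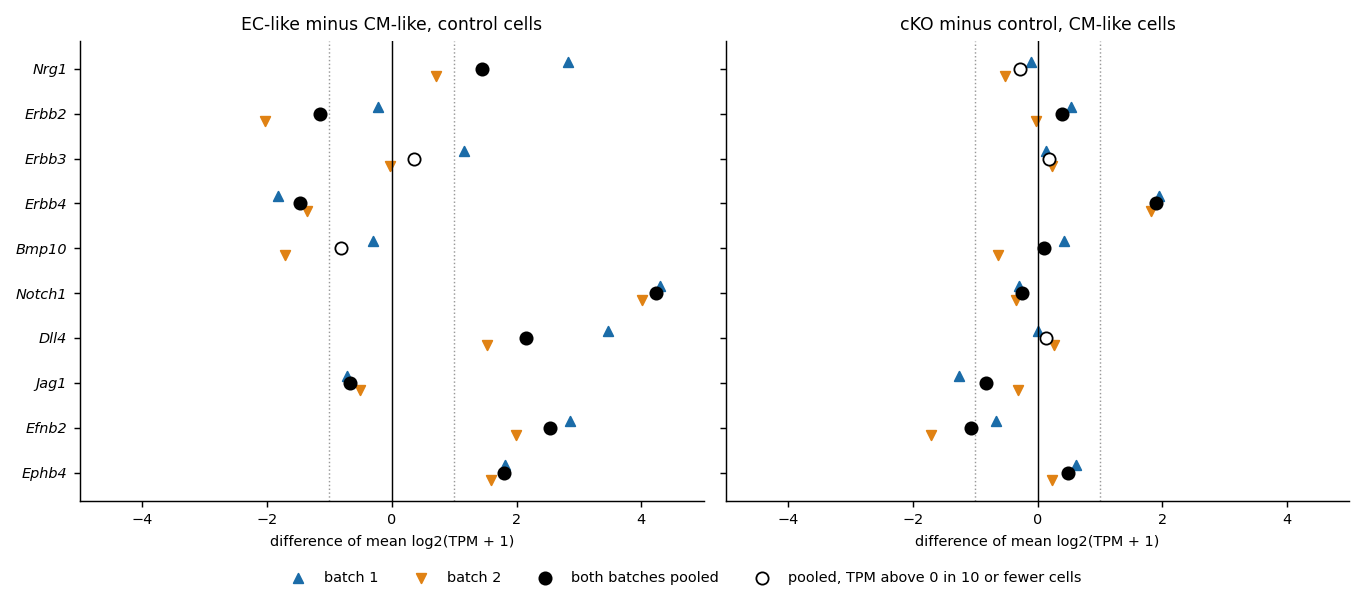
The difference of mean log2(TPM + 1) is plotted for each gene, EC-like minus CM-like control cells on the left and cKO minus control CM-like cells on the right, pooled (circles) and within each batch (triangles), with open circles for genes above 0 in 10 or fewer of the cells compared. On the right, Erbb4 lies near 1.90 in both batches and Efnb2 lies below 0 in both.

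Of 15161 genes above 0 in more than 10 CM-like cells, 5.59% were at least 1 log2 unit higher in cKO cells with the same sign in both batches, and 7.05% were lower. Of the 10 genes, 7 entered the comparison, 1 (Erbb4) was higher and 1 (Efnb2) was lower by that rule. With a pseudocount of 10 neither passed, the difference of Erbb4 being 0.85. The median difference was 0.10 over the 7 genes and 0.02 over all genes, for which it was 0.14 in batch 1 and −0.22 in batch 2.

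Other genes of these pathways were described as lists, which were also chosen with earlier results of these data known. Of 66 genes, 53 entered the comparison of EC-like with CM-like control cells, and 24 (45.3%) were higher and 9 (16.98%) lower in EC-like cells, beside 19.5% and 8.19% of all genes. The 24 include 5 genes listed as endocardial. Some genes had means near 0 in the lower class, such as Gpr126 (0.06) and Tmem100 (0.13) in CM-like and Angpt1 (0.03) in EC-like cells. For such genes the filter can favour a difference, so these counts are a description. In the Notch list 8 of 14 genes were higher, among them the target Hey1 (2.49), the protease Adam10 (2.11) and the target Hes1 (1.93), and the myocardial repressor Hey2 was lower (−1.32). The Notch list had a median difference of 1.29. In the neuregulin list, 2 of 8 were higher, the adaptor Shc1 (2.62) and the EGF-family ligand Hbegf (1.97), and the phosphatase Ptpn11 was lower (−1.62). The 2 of 8 are 25% of this list, near the 19.5% of all genes, and its median was 0.16, below the 0.26 of all genes. In the BMP10 list 5 of 11 were higher, led by the coreceptor Eng (7.54), the cell cycle inhibitor Cdkn1c (2.34) and the type II receptor Bmpr2 (1.73), and 0 were lower.

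Among 6 ephrin genes, Efna1 was higher (5.46) and Efnb3 (−3.31) and the receptor Ephb3 (−1.12) were lower. The 9 trabecular genes lay on both sides. The matrix protease Adamts1 (4.35), the guidance ligand Slit2 (3.56) and the hyaluronan synthase Has2 (2.01) were higher in EC-like cells, whereas 5 genes were lower, led by the natriuretic peptides Nppa (−5.23) and Nppb (−4.87) and the Tie2 ligand Angpt1 (−3.43). All 5 endocardial genes were higher, with Plvap (7.26), Gpr126 (4.75) and the endocardial transcription factor Nfatc1 (3.35) in front. They were listed as endocardial and the class was defined by endothelial markers, so this direction was largely set in advance. Plvap, like Eng of the BMP10 list, was among the top 10 genes of the EC-like cluster.

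Between genotypes, 55 of the 66 genes entered the comparison, 6 (10.9%) were higher and 4 (7.27%) lower in cKO CM-like cells, beside 5.59% and 7.05% of all genes. The share lower was near that of all genes and is no result about the lists, and the values of single genes are given as a description. The trabecular list held 4 of these. The stress-responsive peptide gene Nppb (1.75) and the matrix proteoglycan Vcan (1.40) were higher, and Angpt1 (−2.66) and the growth-promoting transcription factor Mycn (−1.70) were lower. The BMP10 list had the receptor Acvr2b (1.30) and the inhibitory Smad6 (1.201) higher and Smad5 (−1.05) lower. The remaining genes were Cgnl1 (1.52) and the Notch coactivator Maml1 (1.06), which were higher, and Efnb3 (−3.08), which was lower by 2.38 in size in batch 1 and by 4.19 in batch 2. In the neuregulin list, 0 of 8 genes passed in either direction, and its differences ran from −0.57 to 0.55. Medians were 0.41 for the Notch list, 0.35 for BMP10, −0.56 for ephrins and −0.32 for trabecular genes, beside 0.02 for all genes.

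Over all 74 control cells, the genes most alike to each member by Pearson's r of log2(TPM + 1) were drawn from 12680 genes detected in 10 or more of these cells. Notch1 was closest to Tie1 (r = 0.83), Cd93 (0.82) and Calcrl (0.81), the first and second of which were among the markers that defined the EC-like class. Dll4 was closest to Fgd5 (0.70), Fli1 (0.66), also one of those markers, and Prkch (0.65), and Efnb2 to Rrbp1 (0.68), Nucb1 (0.68) and Heg1 (0.67). The genes most alike to Bmp10 included Srpk3 (0.60) and Gm13054 (0.55), although Bmp10 was detected in 6 control cells. Erbb4 was closest to Plekha2 (0.54), Gpc3 (0.54) and Snord72 (0.53), and Erbb2 to Ap5s1 (0.56), the calcium release channel Ryr2 (0.50) and Thra (0.48). For Nrg1 the genes were Tph1 (0.60), Ccrl2 (0.54) and Maml1 (0.51), for Jag1 they were 2700089E24Rik (0.59), Schip1 (0.59) and Plp2 (0.57), for Ephb4 they were Prl8a1 (0.58), Sall3 (0.58) and Stc1 (0.55), and for Erbb3 they included Gm4117 (0.58) and Zfp810 (0.58). The cells share depth and class, and for genes found in few cells the order rests on those cells.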

How the data were processed

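Single-cell libraries were quantified by the authors with Salmon against mm10, with the reporter sequences added, and the deposited table holds TPM for each cell. The version of Salmon and the annotation are not given in the sources used here. Per the study's methods, cells with a low mapping rate or a reporter signal against their genotype had been removed. TPM keeps no sequencing depth, the reads carried no molecular identifiers, and exact intervals cover counting error only. The number of genes above 0 stands in for depth. No 2 columns were identical, and the 27 labelled cells without a column were not analysed here.

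Cells were clustered by Ward's method on 55 marker genes, none of them a member, after log2(TPM + 1) values were z-scored, giving 5 clusters. Names followed the marker list of which the greatest part lay at least 1 log2 unit above the remaining cells, with a minimum of 3 such markers. The epicardial-like cluster also had 9 of 14 mesenchymal markers raised and 3 of each kind among its top 10 genes. The names were rebuilt here and can differ from the study's. No doublet caller was run, because cells were picked singly, so doublets were not tested for. The EC-like cell with the most detected genes had 14139, against at most 11468 in control CM-like cells. It was 1 of the 6 cells with all 4 of Nrg1, Notch1, Dll4 and Efnb2.

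Differences are of mean log2(TPM + 1), a scale that understates the change of low genes, limited to genes that over 10 of the compared cells expressed at all. A gene passed with a pooled difference of at least 1 and the same sign in both batches. The rank-sum test over cells in the study's methods was not used, because cells are not replicates. On simulated data, the rule was checked against known shifts. The shifted genes all had a higher mean than any member in control CM-like cells, and values were drawn from normal distributions. The check therefore does not cover shifts of low genes with many values of 0. The members and gene lists were chosen with earlier results of these data known. All members were named, with up to 3 passing genes on each side of each list by size and the 3 genes most alike to each member. Among the latter, 1 gene each for Bmp10 and Erbb3 is not reported here. Shares have Clopper-Pearson 95% intervals, and a share of 0 was given a limit of 3 cells of the total. Alternatives varied the pseudocount, averaging, filter, batch, depth, endothelial carry-over, mitochondrial share, centring, clusters and detection level. Python 3.11.15, pandas 2.3.3, numpy 2.4.6 and scipy 1.17.1 were used.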

Additional observations from a re-analysis of the deposited data

Results flagged for a closer look

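The control epicardial-like cells (13) entered neither comparison, and 3 of the 10 genes had a higher mean log2(TPM + 1) there than in both the EC-like and the CM-like control cells. For Jag1 the mean was 3.417, against 2.82 in CM-like and 2.16 in EC-like cells, and 12 of 13 cells reached a TPM of 1. For Erbb4 it was 2.126, against 1.91 and 0.43, with 7 of 13 cells. For Erbb3 it was 0.4326, against 0.01 and 0.37, with 2 of 13 cells. Each of these differences was smaller than the larger SD across cells of the classes compared, and none was tested.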

How the results depend on the processing

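No paired analysis was possible because the replicate numbers only name single cells and no test was run. No member that passed the rule changed direction in any of the 14 alternatives, but several of these could not change it. The rule required the same sign in both batches, so a single batch or equal weights could not reverse such a member. The filter does not enter the difference, and 6 clusters gave the same 22 EC-like, 29 control CM-like and 68 cKO CM-like cells. For cKO minus control CM-like cells, Erbb4 ranged from 0.85 (pseudocount 10) to 2.87 (pseudocount 0.1) and Efnb2 from −2.04 to −0.33, while Bmp10 kept its direction in 11 of 14 alternatives and Erbb2 and Notch1 in 13 of 14. Counts between genotypes under pseudocount 0.1 were 1447 genes higher and 2031 lower, with 2 members and 8 other pathway genes lower. Under pseudocount 10 they were 244 and 244, with 0 members higher, 0 members lower, and 2 pathway genes each way. The log2 ratio of mean TPM gave 2147 of 15161 genes, 2 members and 12 pathway genes higher, and 739 genes and 0 members lower. Batch 1 alone gave 1695 of 13332 genes higher and 614 lower. Batch 2 gave 702 of 11436 genes higher, and 3106 genes and 12 pathway genes lower. With 4 clusters, which count the unnamed cells as CM-like, 15317 genes were tested. There 1643 genes and 11 pathway genes were higher, and 403 genes and 0 members lower. Clusters without marker genes gave 1443 of 14934 genes and 2 members lower. For EC-like minus CM-like cells, pseudocount 10 gave 1017 genes, 14 pathway genes and 2 members higher, and 443, 5 and 0 lower. Batch 1 gave 3753 of 10071 genes and 2 members higher, and 860 genes and 1 member lower. Batch 2 gave 1581 of 9296 genes and 3 members higher, and 2093 genes and 1 member lower. With 4 clusters, 629 of 13579 genes and 1 member were lower. Clusters without markers called 37 control cells EC-like and gave 1617 of 14172 genes higher. Both Erbb2 and Erbb4 were present in 65.5% of control and 83.8% of cKO CM-like cells at any TPM above 0, and in 0% and 33.8% at a TPM of at least 10. The cause of these shifts was not tested. Depth is unknown, so a value of 0 can be a missed transcript.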
